A study of Bos taurus with 18 samples.

Results

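Long exonic circular RNAs (circRNAs) of MAC-T cells were described here, taken as the circRNAs that the authors' table lists as exonic and predicts to be at least 1000 bases long after removal of introns. There were 543 of them among 2660 exonic circRNAs (20.4%) and 3914 circRNAs in all (13.9%), and they came from 427 host genes. MAC-T is an established, immortalized line of bovine mammary epithelial cells. Wells were seeded with 200000 cells, which after 12 h received heat-inactivated *Staphylococcus aureus* (*S. aureus* group), heat-inactivated *Escherichia coli* (*E. coli* group) or no bacteria (control group) for a coculture of 24 h, with a multiplicity of infection of 10 for both bacteria. Each group had 3 wells, and every well gave 2 libraries (18 in all), an input for circRNA sequencing and an immunoprecipitate (IP) in which RNA with N6-methyladenosine (m6A) was enriched by an antibody. The wells hold 1 cell line in culture, without the stromal and immune cells of a mammary gland, and nothing says that they came from separate cultures, so p-values measure only the spread between wells.

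A circRNA forms when the end of an exon is joined back to the start of the same or an upstream exon, and such circles lack free ends and resist exonucleases. They are counted from reads that cross this back-splice junction, which linear RNA of the same gene does not have. m6A is set by a writer complex around METTL3 and METTL14, removed by FTO and ALKBH5 and bound by reader proteins of the YTH family. An antibody enriches fragments that carry it, but such fragments need not cross the junction, so within an exon the circle and the linear RNA cannot be told apart.

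The predicted length of the long circRNAs ran from 1001 to 8846 bases with a median of 1436, and the middle 50% lay between 1149 and 1971.5 bases. On the genome they spanned 1052 to 98148 bases with a median of 20117. In 504 of them introns had been removed from the predicted sequence, and the other 39 (7.18%) were a single stretch of genome whose length equals the span. The longest came from ALMS1, whose product is needed at centrosomes and cilia (8846 bases), MKI67, which encodes the proliferation marker Ki-67 (7121 bases), ASH1L, a histone methyltransferase (6112 bases), and the zinc finger genes HIVEP2 (5969 bases) and HIVEP3 (5747 bases). Just inside the limit were circRNAs of ITGA6 with 1001 bases and of KIF24 with 1002 bases. They had 2 and 1 junction reads in all, and the exonic circRNAs of PTPN9, CDC5L and STRN just outside it, with 999, 999 and 998 bases, had 2, 2 and 1.

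Most host genes gave 1 long circRNA. This was so for 341 of the 427, while 65 had 2 and 21 had at least 3. The kinesin gene KIF27 had 5 (1088 to 2715 bases), and ALMS1, CCDC18, the histone methyltransferase gene EHMT1, the transcription factor gene NFATC3 and the nucleoporin gene NUP153 had 4 each. The 4 long circRNAs of NFATC3 began at the same base, at 35549222 on chromosome 18 (bosTau9), and ended at 35552259, 35569573, 35589056 and 35599294. Circles of a gene that overlap in this way share sequence and are not independent, while others do not overlap, such as the 3 of BIRC6 on chromosome 11, which start at 14988282, 15032402 and 15062033.

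The whole table was shallow. Over all circRNAs, control input libraries held 1529 to 2057 junction reads, those with *S. aureus* 361 to 402 and those with *E. coli* 909 to 962, with 780 to 1015, 216 to 251 and 469 to 538 circRNAs detected (at least 1 junction read). Of the 12 mammary epithelial marker genes, CDH1 and DSP hosted a circRNA, of 8 stromal markers ZEB1 did, and of 7 immune markers none did. Marker circRNAs had 0 to 4, 0 to 1 and 0 to 6 reads per library for the epithelial list and 0 to 3, 0 and 0 for ZEB1 in the control, *S. aureus* and *E. coli* groups, so these data hold too few to check the cell type. Whether fewer circles per cell or less RNA in the library stands behind a lower count cannot be told apart in such bulk samples.

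Junction reads on long exonic circRNAs were most numerous without bacteria and least numerous with *S. aureus*. The 3 control wells had 224, 245 and 285 reads, the *S. aureus* wells 64, 51 and 61, and the *E. coli* wells 135, 144 and 144. The 3 groups did not overlap. The means were 251 ± 31.0 without bacteria, 58.7 ± 6.81 with *S. aureus* and 141 ± 5.20 with *E. coli* (SD, n = 3 each), or 4.28-fold and 1.78-fold fewer than in the control group. Per clean input read of the library, which is its sequencing depth, they were 4.44-fold and 1.51-fold fewer, and the groups did not overlap either. An exact two-sided permutation test over wells gave p = 0.1 for each of the 3 comparisons (adjusted p = 0.18 over 9 tests on input libraries), the smallest that 3 wells against 3 allow.

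Set against all exonic circRNAs, the long ones differed less between groups. They took 19.2% ± 1.09 of exonic junction reads without bacteria, 21.7% ± 0.261 with *S. aureus* and 19.6% ± 0.664 with *E. coli* (SD, n = 3 each). All *S. aureus* wells lay above all wells of the other groups. Their mean was 2.56 points above that of control and 2.09 above that of *E. coli* wells (exact permutation test, p = 0.1 for each, adjusted p = 0.18). Control and *E. coli* wells overlapped (exact permutation test, p = 0.6). The *S. aureus* shares rest on 51 to 64 reads per well. Their 95% counting intervals lay between 16.7% and 27.2%, and each held the share of every control and *E. coli* well. Of the exonic circRNAs detected in a library, 19.6% ± 1.99, 20.8% ± 0.495 and 20.2% ± 1.59 were long in the control, *S. aureus* and *E. coli* groups, and the wells of all groups overlapped. A detected long circRNA had 1.9 reads on average over the 9 wells and a detected exonic circRNA under 400 bases 1.96, and the difference within wells did not pass an exact sign-flip permutation test (p = 0.234, lower in 6 of 9 wells).

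**Figure D1:**
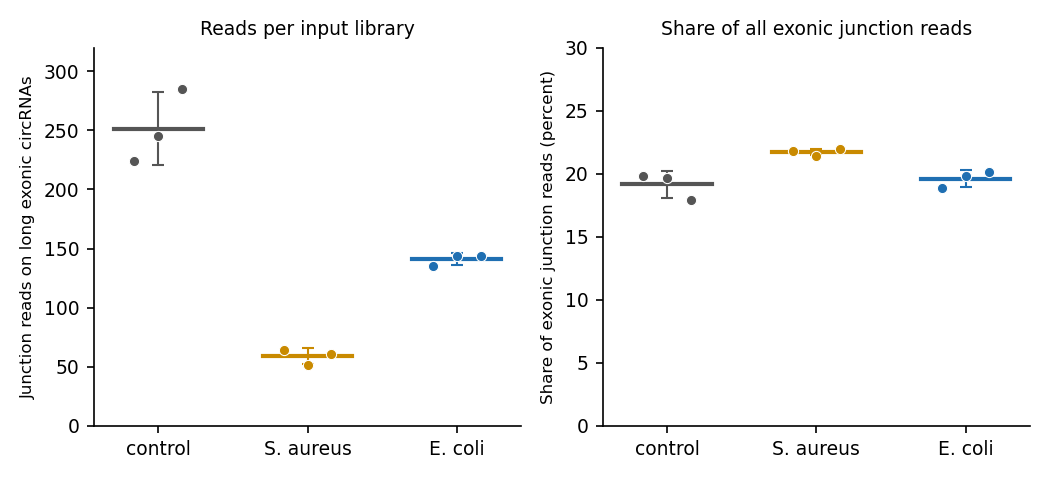
Junction reads on long exonic circRNAs per input library (left) and their share of all exonic junction reads in percent (right), by group. Points are wells, the thick line is the mean and the thin bar the SD of 3 wells. The reads of the groups do not overlap, with 224 to 285 in the control, 51 to 64 in the *S. aureus* and 135 to 144 in the *E. coli* group, while the shares all lie between 17.9% and 21.9%.

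Single long circRNAs were seen sporadically. Of the 543, 458 (84.3%) were seen in 1 input library only, against 81.8% of all exonic circRNAs. Another 55 were seen in 2 libraries and 30 in at least 3, and none in more than 7 of the 9. In all, 222 had 1 junction read over the whole study and 186 had 2. A read was found for 322 of them without bacteria, for 94 with *S. aureus* and for 200 with *E. coli*, and 14 had a read in every group. Of those read with *S. aureus*, 68 of 94 (72.3%) had none in a control well, beside 71.8% of all exonic and 79.1% of all circRNAs read there. Of those read with *E. coli*, 160 of 200 (80%) had none, beside 72.8% and 78.5%, and these shares were not tested. Reads of a circRNA also came in bursts in 1 well. CUL3, the scaffold of a ubiquitin ligase, had 8 reads in *E. coli* well 2 and 0 elsewhere, a 1027-base circRNA of BIRC6, an inhibitor of apoptosis, and that of ZFHX3, a zinc finger transcription factor, each had 8 in control well 3 and 0 elsewhere, and a 3384-base circRNA of NSD1, a histone methyltransferase, had 6 in *S. aureus* well 1 and 0 elsewhere. The 5601-base circRNA of HIVEP3 had 8 in *E. coli* well 2, 1 in control well 2 and 0 elsewhere.

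CircRNAs of all classes entered a count test where 3 or more libraries had 2 or more of their junction reads, and were tested with edgeR's quasi-likelihood test in 1 fit over the 3 groups, with Benjamini-Hochberg adjustment over the 79 that passed. Of the 543 long exonic circRNAs, 17 passed this filter, and they are the ones with the most recurrent reads, not a sample of all. A circRNA could pass through the wells of 1 group alone, and control libraries held the most reads, so the filter favoured circRNAs high in control. No circRNA passed an adjusted p of 0.05 in any of the 3 comparisons (0 of 79, percent called 0), and none of the 17 did. At an unadjusted p under 0.05, 3, 2 and 5 of the 17 were found for *S. aureus* against control, *E. coli* against control and *E. coli* against *S. aureus*. These 10 are the calls at the thresholds of the study, a fold change of at least 2 with an unadjusted p of at most 0.05. DESeq2 gave 1, 0 and 1 at these thresholds and 0 after adjustment. The alternatives counted below for single circRNAs are only those in which the circRNA passed the filter. The fold changes also moved with the scaling. The median log2 fold change of all 79 was -1.88 for *S. aureus* against control, -0.37 for *E. coli* against control and 1.19 for *E. coli* against *S. aureus* with TMM scaling, and -0.74, 0.22 and 0.64 with total junction reads alone.

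Between *S. aureus* and control, 3 of the 17 were lower and 0 higher at the thresholds of the study, where 16.5% of all 79 were lower (13 circRNAs) and 0% higher. All 3 had 2 or more reads in every control well. These wells alone took them past the filter, so this split is no support for a direction. The most abundant of all long exonic circRNAs came from GLIS3, a Krüppel-like zinc finger transcription factor, and is a single stretch of 1126 bases at 40368241 to 40369366 of chromosome 8. It had 8, 6 and 11 reads in the control wells, 0, 0 and 0 in the *S. aureus* wells, and 0, 5 and 1 in the *E. coli* wells. In raw counts all control wells were above all others. Per junction read they were not, as *E. coli* well 2 had 5 of 962 reads and control well 2 had 6 of 1714. How many of all circRNAs separate in raw counts, here and below, was not counted. The *S. aureus* wells had 0 of 1147 junction reads, which allows up to 0.262% of them, and with this floor of 3 counts over the group GLIS3 was at least 1.80-fold lower per junction read than in the control group, and at least 8.63-fold lower per clean input read. Most counts of at least 2 in the table were even, so a count of 2 need not be 2 independent reads, and a bound near 1 may not hold. Bounds of this kind, here and below, pool the wells and take the reads of the other group as exact. They leave out its counting error and the spread between wells. The adjusted p was 0.135 (edgeR's quasi-likelihood test, Benjamini-Hochberg), and this was the call that stayed past the thresholds under all 15 alternatives.

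The second was from BTBD7, whose mouse protein is known from branching of epithelial organs. This 1268-base circRNA (chromosome 21, 57913323 to 57915074) had 4, 7 and 5 reads in the control wells and 0 in all 6 wells with bacteria. Per junction read it was at least 1.15-fold lower with *S. aureus* and at least 2.81-fold lower with *E. coli*, and per clean input read at least 5.52-fold and 4.52-fold lower. The adjusted p was 0.210 and 0.269 (edgeR's quasi-likelihood test, Benjamini-Hochberg). In the comparison of *E. coli* with control it was 1 of 2 calls among the 17, and the percent called of all 79 was 7.59% for lower and 1.27% for higher. Its call with *S. aureus* was lost under 4 of 12 alternatives (DESeq2, no TMM, without *S. aureus* well 1 or 3) and that with *E. coli* under 1 (DESeq2).

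The third, from KANSL1L, is a single stretch of 1117 bases (chromosome 2, 97948826 to 97949942). It had 4, 2 and 7 reads in the control wells, 0 in the *S. aureus* wells and 1, 0 and 0 in the *E. coli* wells. In raw counts every control well was above every other well. Its adjusted p for *S. aureus* against control was 0.247 (edgeR's quasi-likelihood test), 7 of 12 alternatives ended the call, and per junction read no bound above 1 could be given, while per clean input read it was at least 4.49-fold lower.

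Higher with *E. coli* than in the control group was the circRNA of TAF3, a subunit of the general transcription factor TFIID. Its 1912-base circle (chromosome 13, 15989889 to 15999305) had 0 reads in all control wells, 0, 2 and 0 in the *S. aureus* wells and 4, 2 and 0 in the *E. coli* wells. The groups overlapped at 0. It was at least 3.80-fold higher with *E. coli* than in the control group per junction read and at least 2.36-fold per clean input read, with an adjusted p of 0.494 (edgeR's quasi-likelihood test), and 6 of 11 alternatives ended the call, among them leaving out any control well.

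Between *E. coli* and *S. aureus*, 4 of the 17 were higher with *E. coli* and 1 was lower, where 12.7% of all 79 were higher and 2.53% lower. The circRNA of CPLANE1, a gene of cilium formation, spans 37057098 to 37088360 of chromosome 20 and has 4440 bases. It had 2, 1 and 0 reads in the control wells, 0 in the *S. aureus* wells and 12, 0 and 2 in the *E. coli* wells, so that 1 well held most of its reads and the groups overlapped. With the floor of 3 counts for the *S. aureus* group, its pooled *E. coli* reads were 1.92-fold higher per junction read and 5.71-fold per clean input read. The adjusted p was 0.146 (edgeR's quasi-likelihood test). All 11 alternatives in which it passed the filter kept the call. Without *E. coli* well 1 it missed the filter, so the call was not tried without that well. WDR37 had 1, 1 and 2 reads in control wells, 0 with *S. aureus* and 4, 1 and 5 with *E. coli*. Here all *E. coli* wells were above all *S. aureus* wells, at least 1.37-fold per junction read and 4.08-fold per clean input read over the group. GLIS3 (the reads given above) and SCAF8, which binds RNA polymerase II (0, 2 and 0 reads without bacteria, 0 with *S. aureus* and 2, 2 and 0 with *E. coli*), had adjusted p-values of 0.286, as had WDR37 and, in the other direction, ZUP1 (edgeR's quasi-likelihood test). ZUP1, a deubiquitinase gene, had 0, 0 and 4 reads in the control wells, 2, 0 and 2 with *S. aureus* and 0 with *E. coli*. The calls of these 4 were less stable, and were lost under 8 of 14 alternatives for GLIS3, 6 of 11 for WDR37 and 9 of 11 each for SCAF8 and ZUP1.

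The split of calls between higher and lower moved with the scaling. For *E. coli* against control, 1 of all 79 circRNAs was higher and 6 were lower with TMM, and 2 and 4 with total junction reads alone. For *E. coli* against *S. aureus*, 10 were higher and 2 lower with TMM, and 3 and 3 with total junction reads alone.

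**Figure D2:**
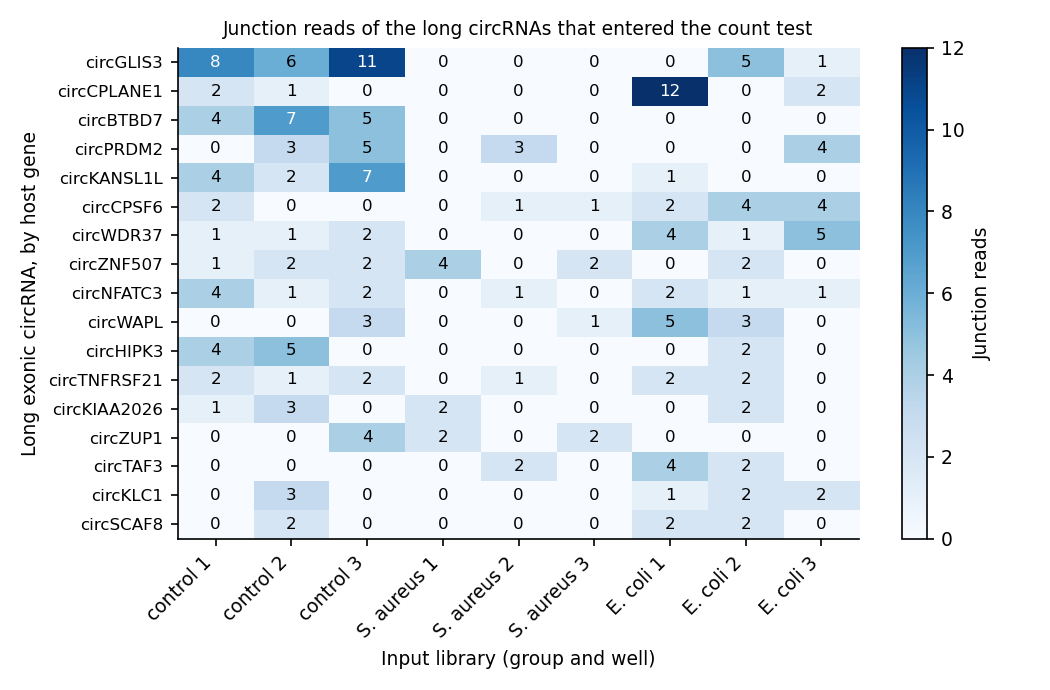
Junction reads of the 17 long exonic circRNAs that entered the count test, by host gene (vertical axis, ordered by total reads) and input library (horizontal axis). Each cell gives the count, and darker blue is a higher count. GLIS3, BTBD7 and KANSL1L have reads in all 3 control wells and 0 in all 3 *S. aureus* wells, and the highest count, 12 of CPLANE1, stands in 1 *E. coli* well.

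Among the other abundant circRNAs no call was made. PRDM2, a zinc finger protein with a histone methyltransferase domain (4465 bases), had 0, 3 and 5 reads in control, 0, 3 and 0 in *S. aureus* and 0, 0 and 4 in *E. coli* wells. CPSF6, a factor of mRNA 3′ end cleavage, had 2, 0 and 0, then 0, 1 and 1, then 2, 4 and 4. HIPK3, a protein kinase gene whose second exon gives a well-known circRNA in human cells, had a single-stretch circle of 1099 bases (chromosome 15, 63908514 to 63909612) with 4, 5 and 0 reads in control wells, 0 in *S. aureus* wells and 0, 2 and 0 in *E. coli* wells, and its adjusted p for *S. aureus* against control was 0.247 (edgeR's quasi-likelihood test). MED17, of the Mediator complex, had 7, 2 and 1, then 0, 0 and 1, then 1, 0 and 1 reads, and missed the filter.

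An m6A peak is a region the authors' peak caller found enriched in an IP library over its input, listed with its fold enrichment and for 1 circRNA. On long exonic circRNAs control libraries had 460, 391 and 414 peaks, *S. aureus* libraries 4, 6 and 5, and *E. coli* libraries 238, 293 and 221. The means were 422 ± 35.1, 5 ± 1 and 251 ± 37.6 (SD, n = 3 each), and the groups did not overlap. A peak was listed for 44.4% ± 2.12 of the 543 without bacteria, 0.614% ± 0.106 with *S. aureus* and 32.2% ± 3.31 with *E. coli*. Each of these differences had p = 0.1 in the exact permutation test (adjusted p = 0.107 over 15 tests on peaks).

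The direction between *E. coli* and control rested on peaks with a high false discovery rate (FDR), which the tables give in percent for each peak. Over all libraries 1080 of 2032 peaks on long exonic circRNAs (53.1%) had an FDR above 20%. The median FDR of these peaks was 22.0%, 38.4% and 32.4% without bacteria, 30.3%, 33.3% and 24.2% with *S. aureus* and 4.38%, 3.38% and 5.56% with *E. coli*. With an FDR of at most 20%, 199, 2 and 83 peaks were left without bacteria, 0, 0 and 0 with *S. aureus* and 211, 270 and 187 with *E. coli*. The groups then overlapped, and the *E. coli* group had 128 peaks more than the control group where it had 171 fewer over all peaks (exact permutation test, p = 0.2). The lower number of peaks with *E. coli* was thus not found among peaks of low FDR, and what sets the FDR of a library was not tested. The FDRs of peaks on all exonic or all circRNAs are not given here. These counts can therefore not be read as particular to long circRNAs.

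**Figure D3:**
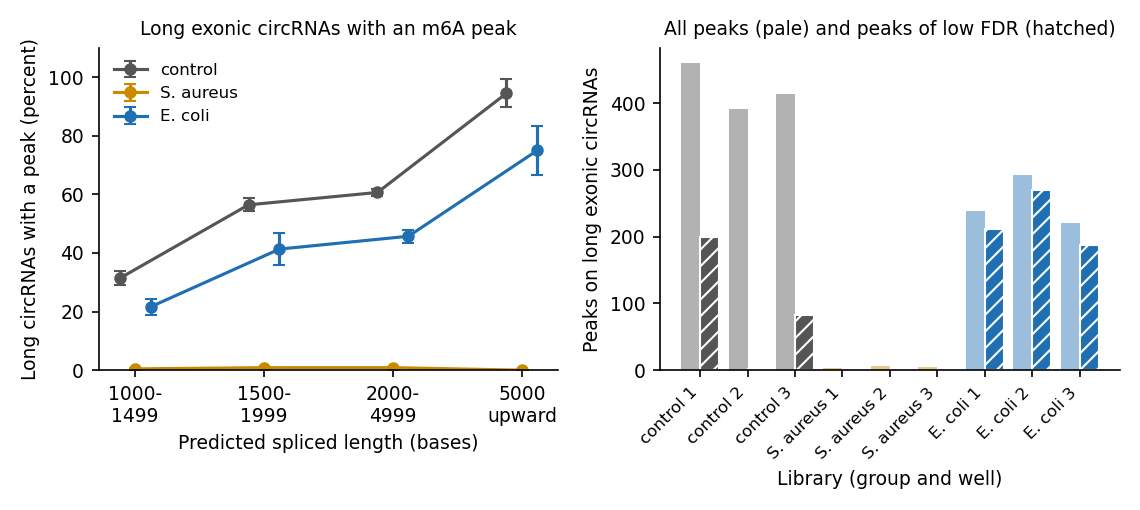
Left, percent of long exonic circRNAs with a listed m6A peak (vertical axis) by predicted length in bases (horizontal axis), as mean and SD of 3 libraries per group. Right, number of peaks on long exonic circRNAs in each IP library, all of them (pale bars) and those with an FDR of at most 20% (hatched bars). The control and *E. coli* curves rise from 31.3% and 21.6% to 94.4% and 75%, and in the right panel control library 2 keeps 2 of 391 peaks while *E. coli* library 2 keeps 270 of 293.

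Within the long circRNAs, the share with a peak went up with length. In the control group it was 31.3% ± 2.38 of the 298 below 1500 bases, 56.4% ± 2.26 of the 117 from 1500 to below 2000, 60.6% ± 1.32 of the 116 from 2000 to below 5000 and 94.4% ± 4.81 of the 12 from 5000 upward. In the *E. coli* group the shares were 21.6% ± 2.81, 41.3% ± 5.56, 45.7% ± 2.28 and 75% ± 8.33. Per kilobase the order was another one. Control libraries had 0.406, 0.552, 0.434 and 0.283 peaks per kilobase in the 4 ranges, highest between 1500 and 2000 bases and lowest in the longest circles.

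Compared with shorter exonic circRNAs, long ones held more peaks and about as many per base. They made up 47.8% ± 0.367 of the peaks on exonic circRNAs in control libraries, 65.7% ± 9.76 in *S. aureus* libraries (4 of 6, 6 of 8 and 5 of 9 peaks) and 49.9% ± 1.55 in *E. coli* libraries, while they were 20.4% of the exonic circRNAs. Over all 9 libraries they had 0.234 peaks per kilobase, the 1249 exonic circRNAs of 400 to below 1000 bases 0.224 and the 868 under 400 bases 0.249. The difference from the middle class was positive in 9 of 9 libraries (exact sign-flip permutation test, p = 0.00391, adjusted p = 0.0234 over 6 tests). When only circRNAs with a junction read in the same well were counted it was negative, at -0.0544 (p = 0.0469, exact sign-flip), and when each peak was counted on every exonic circRNA it overlaps it was 0.00927 (p = 0.145, exact sign-flip). The difference from the short class did not pass the test (p = 0.242, exact sign-flip, positive in 5 of 9 libraries).

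The number of peaks per kilobase also went with how a circle is built. Among the 504 long circRNAs with introns removed, control libraries had 0.445 ± 0.0389 peaks per kilobase, near the 0.403 ± 0.0405 and 0.453 ± 0.0412 of middle and short ones of the same build. Among single-stretch circRNAs the values were 1.03 ± 0.0637 for short, 0.908 ± 0.0449 for middle and 0.351 ± 0.0130 for long ones (SD, n = 3 each). A long single-stretch circle had at most 1 peak region, so its highest possible number per kilobase falls with length. The share of single stretches with a peak in control libraries went the other way, with 24.6% of short, 60.3% of middle and 69.2% of long ones. Of long circles with introns removed it was 42.5%. On long single stretches, 148 of the 149 peaks ran from the first to the last base of the circle. More widely, 434 of the 441 regions on long circRNAs that were called in at least 2 libraries had the same start and end in each (98.4%). A peak region is thus a fixed stretch that holds enrichment, and its length does not give the extent of methylation.

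**Figure D4:**
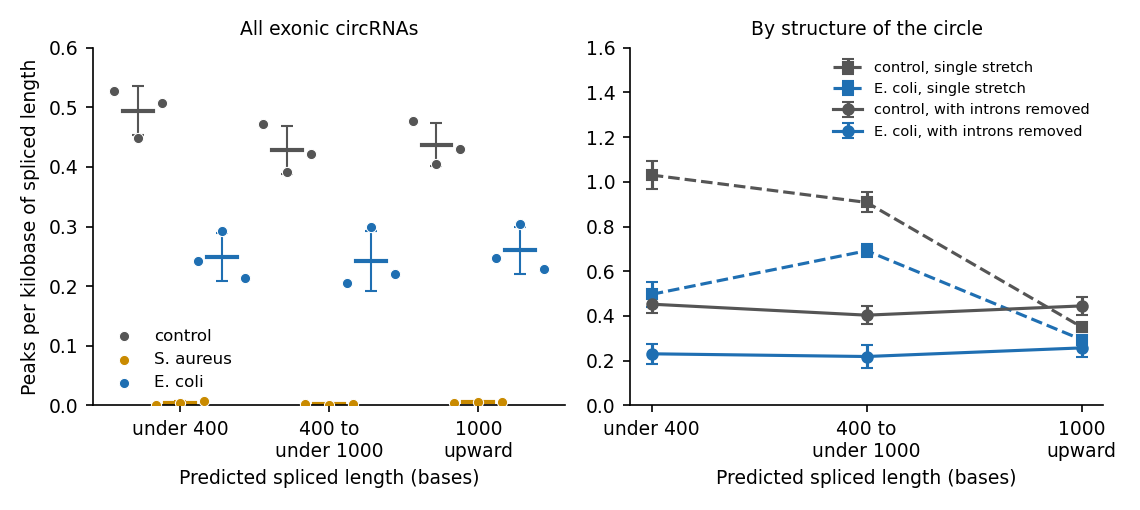
Peaks per kilobase of predicted length for exonic circRNAs of 3 length classes. Left, all exonic circRNAs, with points for libraries, thick lines for means and thin bars for the SD of 3 libraries. Right, means and SD for circRNAs that are a single stretch of genome (squares, dashed) and for those with introns removed (circles), in the control and *E. coli* groups. In control libraries single stretches fall from 1.03 to 0.351 with length, while circles with introns removed stay between 0.403 and 0.453. A long single stretch had at most 1 peak region, and the share of single stretches with a peak rose from 24.6% to 69.2%.

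Detection of a circle and a peak on it did not go together beyond the spread between wells. Of long exonic circRNAs with a junction read in a well, 24.5% had a peak there on average over the 9 wells, and of those without 26.0% (exact sign-flip permutation test, p = 0.414, higher in 2 of 9 wells). The median fold enrichment of peaks was 27.6 on long, 27.0 on middle and 26.0 on short exonic circRNAs over the 6 control and *E. coli* libraries. It was higher on long than on short ones in 6 of 6 libraries (exact sign-flip, p = 0.03125, adjusted p = 0.09375) and higher than on middle ones in 4 of 6.

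A peak could often be assigned to more than 1 circle. Of the 2032 peaks on long circRNAs, 20.7% overlapped several circRNAs on the same strand, and 99.5% of these were listed for the circle that starts first on the chromosome. Of the 272 long circRNAs with no listed peak, 74 overlapped a peak listed for another circRNA. Counted by overlap, 57.2% ± 1.84 of the 543 had a peak in control libraries, 0.614% ± 0.106 in *S. aureus* libraries and 42.2% ± 3.70 in *E. coli* libraries. The GLIS3 circle of 1126 bases shows this. No peak is listed for it, but a peak that covers exactly its bases is listed for an overlapping GLIS3 circle of 1334 bases, with fold enrichments of 82.4, 82.9 and 44.1 in the control libraries and 82.7, 72.4 and 94.2 in the *E. coli* libraries. Control and *E. coli* libraries overlapped, and no *S. aureus* library had it.

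Among the 17 circRNAs of the count test, 9 had a listed peak, 5 an overlapping peak only (GLIS3, KANSL1L, CPSF6, PRDM2 and NFATC3) and 3 neither (WDR37, ZUP1 and KLC1). The TAF3 circle, which had no junction read in the control wells, had listed peaks in all 3 control libraries with fold enrichments of up to 71.4, 90.5 and 56.9, and in all 3 *E. coli* libraries with 85.0, 106 and 69.1. The HIPK3 circle had a peak over its whole length in the control libraries only, with fold enrichments of 10.3, 7.78 and 6.14, which are low beside the library medians of 24.1, 23.2 and 17.1. BTBD7 had a peak in control library 2 only, with 16.5.

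When regions that share at least 1 base were merged within a group, 524 places on long circRNAs were called in any control library, 327 of them in all 3 (62.4%), and 344 in any *E. coli* library, 168 in all 3 (48.8%). Of the places, 318 were called in both groups, 60.7% of the control places and 92.4% of the *E. coli* places, and 26 (7.56% of the *E. coli* places) were called with *E. coli* and not in control, beside 7.91% of *E. coli* places on exonic and 7.97% on all circRNAs. Of control places, 58.0% on exonic and 58.4% on all circRNAs were also called with *E. coli*. A listed peak was found on 271 of the 543 in any library, on 265 in any control, 213 in any *E. coli* and 4 in any *S. aureus* library. With a peak in all 3 control libraries were 220. Of these, 133 (60.5%) had one in all 3 *E. coli* libraries, where the share was 53.8% over all circRNAs and 53% over exonic ones, and 28 (12.7%) in none, where it was 16.2% and 15.9%. A peak in no *S. aureus* library was found for 217 of the 220 (98.6%), beside 97.3% over all and 98.7% over exonic circRNAs. None of the 135 with a peak in all 3 *E. coli* libraries lacked one in all control libraries, beside 0.777% over all and 0.383% over exonic circRNAs.

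The circles with the most merged control peaks all had introns removed, which was fixed in advance, since a long single-stretch circle had at most 1 peak region. AKAP9, a scaffold of kinases at the centrosome and Golgi, had on its 4739-base circle (chromosome 4, 9414889 to 9447186) 8, 9 and 8 peaks in the control libraries, 0 in the *S. aureus* libraries and 5, 5 and 4 in the *E. coli* libraries. The 3049-base circle of SPECC1L, which binds microtubules and actin, had 7, 8 and 5 in control and 3, 3 and 3 in *E. coli* libraries. UPF2, of nonsense-mediated mRNA decay, had 8, 7 and 7 and then 3, 2 and 2. In these 3 circles each control library had more peaks than any *E. coli* library. They were chosen by their control peaks, which favours the control group, so this is no evidence of a difference. How many of all circRNAs separate in this way was not counted. The circles themselves had few junction reads in the study. AKAP9 had 1, in *S. aureus* well 3, UPF2 had 1, in *E. coli* well 1, and SPECC1L had 4, in control well 3. The AKAP9 and UPF2 circles were thus not read in the control wells, where they had the most peaks.

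HDLBP, which encodes the RNA-binding protein vigilin, had 5, 5 and 5 peaks in control and 5, 6 and 7 in *E. coli* libraries. DST, a linker of the cytoskeleton, had 6, 5 and 6 and then 5, 5 and 5 on a circle of 5745 bases, and ITSN1, an endocytic scaffold, 6, 7 and 7 and then 5, 6 and 4. These circles had like numbers in both groups, with ranges that met or overlapped. Per kilobase the densest was GIGYF2, a repressor of translation, with 5 peaks in every control library on 1012 bases (4.94 per kilobase) and 3, 3 and 2 in *E. coli* libraries. RABEP1, RAD50 and PHF3 followed with 3.46, 3.45 and 3.38 per kilobase.

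The highest fold enrichments were on MAP4K4, a kinase upstream of JNK, whose 2489-base circle lies on chromosome 11 (6589372 to 6616790). Its region of 162 bases from 6597090 to 6597251 had 258, 148 and 129 in the control libraries and 195, 344 and 279 in the *E. coli* libraries, and the groups overlapped. Its region from 6592905 to 6593115 had 209, 228 and 131 and then 109, 185 and 242. UPF2 reached 188, 142 and 199 in control and 98.3, 152 and 129 in *E. coli* libraries at 12306164 to 12306543 of chromosome 13. DST at 3625833 to 3626381 of chromosome 23 had 111, 89.1 and 83.6 in control and 154, 127 and 187 in *E. coli* libraries, without overlap. None of these 4 places was called with *S. aureus*. Yet the MAP4K4 and DST circles were read only there, with 2 junction reads each, in *S. aureus* wells 2 and 3. The UPF2 circle had 1, in *E. coli* well 1.

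At the 161 places called in all 6 control and *E. coli* libraries the fold enrichment was higher in every *E. coli* than in every control library at 16 (9.94%) and lower at 0. Over all circRNAs the shares were 9.47% higher and 1.62% lower of 433 places, and over exonic ones 10.1% and 1.01% of 298, so the share among long circRNAs was near that of all. The median log2 ratio of *E. coli* to control means was 0.23 on long and 0.20 on all circRNAs. The median fold enrichment of all peaks on long circRNAs was 24.1, 23.2 and 17.1 in control, 31.5, 34.2 and 35.8 in *E. coli* and 55.1, 70.5 and 72.2 in *S. aureus* libraries, in the reverse order of the number of peaks.

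With *S. aureus*, 4 long exonic circRNAs had a peak, at 6 places. DSP encodes desmoplakin, which ties desmosomes to intermediate filaments, and its 2442-base circle lies on chromosome 23 (47830853 to 47844239). The region at 47830853 to 47831350 had fold enrichments of 73.6, 60.5 and 42.2 in the control, 53.8, 65.1 and 63.5 in the *S. aureus* and 56.5, 66.8 and 46.4 in the *E. coli* libraries. It was the one place on long circRNAs called in all 9 libraries, with overlapping values. The circle as a whole had 4, 4 and 3 peaks in the control libraries, 1, 1 and 1 in the *S. aureus* libraries and 3, 3 and 3 in the *E. coli* libraries, so this was its only place called with *S. aureus*.

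LMO7, whose product is found at cell junctions, had 1 place on its 1421-base circle, at 50884887 to 50885206 of chromosome 12. Its fold enrichment was 118, 91.4 and 79.3 in the control and 105, 80.8 and 93.3 in the *S. aureus* libraries, which overlapped, and 91.1 in *E. coli* library 1 with no call in the others. HIF1A, the oxygen-regulated transcription factor, had 34.5, 30.7 and 25.1 in the control libraries, 27.2 in *S. aureus* library 2 only, and 37.4 and 33.2 in *E. coli* libraries 1 and 2.

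TNS4, a tensin of focal adhesions, had peaks with bacteria and none without. Its 1588-base circle spans 40704871 to 40716576 of chromosome 19 and had 0 peaks in the 3 control libraries, 2, 3 and 3 in the *S. aureus* libraries and 2, 3 and 0 in the *E. coli* libraries. The fold enrichment at 40709399 to 40709822 was 56.5, 75.9 and 82.6 with *S. aureus* and 37.4 and 52.6 in *E. coli* libraries 1 and 2. At 40707892 to 40708313 it was 46.0, 85.0 and 70.9 with *S. aureus* and 29.2 in *E. coli* library 1, and at 40716048 to 40716576 it was 64.2 and 72.2 in *S. aureus* libraries 2 and 3 and 37.7 in *E. coli* library 2. Among libraries with a call, each *S. aureus* value was above each *E. coli* value at its place, but 2 of the 3 places had a call in only 1 *E. coli* library. At the DSP and LMO7 places the values did not separate so, and at that of HIF1A the *S. aureus* value was the lower. TNS4 was 1 of the 3 long exonic circRNAs with a peak in all *S. aureus* libraries (33.3%) that had none in control. This was beside 1 of 4 exonic (25%) and 6 of 19 of all circRNAs (31.6%), so this share was near that of all. The circle itself had 1 junction read in the study, in *E. coli* well 3, and every *S. aureus* peak on long circRNAs had an FDR between 20.1% and 44.9%. A peak not called can also mean too few reads in the region, and the part of depth in these calls was not tested.

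**Figure D5:**
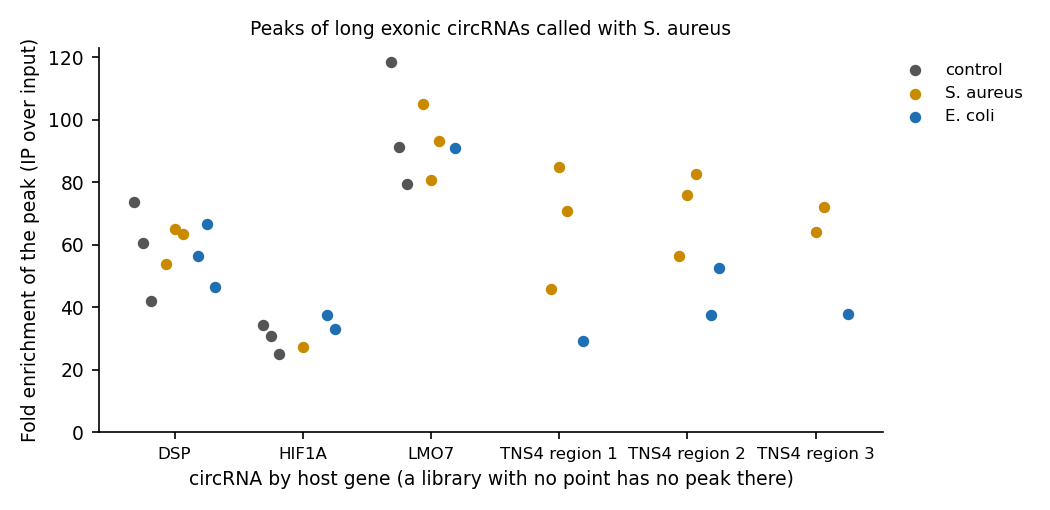
Fold enrichment (IP over input, vertical axis) at the 6 places on long exonic circRNAs called in any *S. aureus* library, by host gene. Each point is 1 library, and a library with no point had no peak there. DSP has points in all 9 libraries, between 42.2 and 73.6, and the 3 TNS4 regions have none in the control group.

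Among the 28 circles with a peak in every control and no *E. coli* library, those with the highest fold enrichment were COIL, BTBD8, EFCAB5, a second AKAP9 circle and WRN. COIL encodes coilin of Cajal bodies, and its region at 7774272 to 7775382 of chromosome 19 had 53.1, 44.1 and 35.9 in the control libraries. The AKAP9 circle of 1612 bases at 9375580 to 9412335 had 2 listed peaks in every control library and none with *E. coli*, but it overlapped 1, 1 and 2 peaks listed for other AKAP9 circles in the *E. coli* libraries, with fold enrichments of up to 51.9, 24.7 and 26.6, so that the contrast is one of listing. In the same libraries the longer AKAP9 circle described above had 5, 5 and 4. The 1988-base circle of WRN, a DNA helicase, had 21.1, 38.5 and 25.2 in the control libraries and no peak with *E. coli*, while its 6 junction reads were all in *E. coli* well 3.

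The gene groups below hold few long circRNAs, and their counts are set beside the 40.5% of all 543 that had a listed peak in all 3 control libraries (220). Of the m6A machinery, 3 of 21 genes hosted 1 long circRNA each, and all 3 had such a peak in all control and all *E. coli* libraries. They were ZC3H13 of the writer complex and the readers YTHDF2 and YTHDC1. The YTHDF2 circle is a single stretch of 1587 bases (chromosome 2, 124733766 to 124735352) with fold enrichments of 41.6, 40.2 and 26.9 in control and 38.3, 35.2 and 30.4 in *E. coli* libraries, which overlapped. A region of YTHDC1 had 94.5, 73.7 and 65.6 and then 102, 106 and 78.1, also with overlap.

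Chromatin regulators had 21 long circRNAs from 14 genes, of which 12 (57.1%) had a peak in all control libraries, 9 in all *E. coli* and 0 in any *S. aureus* library. MGA, a transcription factor of the MYC network (1131 bases), had 21.7, 22.4 and 19.8 in control and 28.9, 13.2 and 33.9 in *E. coli* libraries, and CHD9, a chromatin remodeler (1620 bases), had 18.7, 14.7 and 8.47 in control and 19.9 in *E. coli* library 3 only. Zinc finger transcription factors had 14, of which 8 (57.1%) had such a peak. Their median length was 3347 bases beside 1436 for all, and length and peaks went together among long circRNAs, as given above. The 5601-base single stretch of HIVEP3 had 41.5, 28.4 and 25.9 in control and 38.6, 50.6 and 42.1 in *E. coli* libraries. Hosts of circRNAs described in other species had 8, of which 5 had such a peak, among them FOXO3 (1436 bases), a transcription factor of stress responses, with 66.8, 41.3 and 24.1 in control and 39.0, 81.5 and 73.2 in *E. coli* libraries, and FAT1 (3283 bases), a giant cadherin, with 29.9, 32.9 and 21.9 and then 25.9, 23.9 and 28.2.

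Ubiquitin ligases and deubiquitinases had 17, 7 of them with a peak in all control libraries. TRIP12, a ubiquitin ligase, had 2, 3 and 1 reads in control wells and 1 in *E. coli* well 1 on a 1076-base circle with no listed peak, though peaks listed for other TRIP12 circles overlapped it in all control and *E. coli* libraries. Genes of the cytoskeleton, junctions and adhesion had 17, 5 of them with a peak in all control libraries. Of the 17, 2 (DSP and TNS4) had a peak in an *S. aureus* library, beside 4 of all 543, and no other list had one. KIF5B, a kinesin heavy chain, had 4, 4 and 5 peaks in control and 4, 2 and 0 in *E. coli* libraries. Apoptosis and autophagy genes had 10, 3 of them with such a peak. Inflammatory and MAP kinase signalling genes had 4, of which that of MAP4K4 alone had a listed peak in any library. For none of these groups was a test made, and the lists were chosen with earlier results of these data known. These few counts therefore set no group apart from the others.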

How the data were processed

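Per the labels and the methods of the study, reads of 150 bases went through cutadapt 1.9.3 (trimming) and STAR 2.5.1b (alignment to bosTau9), and the authors found circRNAs with DCC, whose counts of back-splice junction reads were deposited as 1 table without pooling of wells. The same deposited table holds log2 values that the authors normalized (edgeR 3.16.5), which were not used in tests. The deposited peak tables give, per IP library, each peak's fold enrichment (a ratio of IP to input), its FDR in percent as the authors' caller wrote it, and a score computed from the log10 of its p, and per the file headers 1 circRNA for each peak. The caller's version and its use of strand are not given in the sources used here.

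The long exonic circRNAs and the gene lists were chosen with earlier results of these data known. Reads and peaks were summed per library, and groups were compared by exact two-sided permutation tests over wells, with Benjamini-Hochberg adjustment within 9 tests on reads and 15 on peaks. Length classes were compared within libraries by exact two-sided sign-flip tests. A circRNA entered the count test where 3 or more libraries had 2 or more of its reads, and the model was edgeR's quasi-likelihood one (edgeR 4.0.16 in R 4.3.3, TMM scaling, 3 groups fitted jointly) and was first tested on simulated data. DESeq2 1.42.0 was an alternative. No 2 libraries had identical counts. The tests used Python 3.11.15, pandas 2.3.3, numpy 2.4.6 and scipy 1.17.1, and figures were drawn with matplotlib 3.10.9. Clean input reads per library, used for values per clean input read, are those the study lists. Total junction reads per library were 361 to 2057, and floors and counting limits cover counting error only.

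CircRNAs named were those with the most reads (10), past the thresholds of the study in the count test, with the most control peaks or peaks per kilobase (10 each), with peaks throughout 1 group and in no library of another (up to 5), with the 10 highest fold enrichments, the 5 longest, hosts of at least 3, those next to the length limit, and up to 4 of each gene list by reads. FOXO3, FAT1, HIF1A and the other genes with peaks in some *S. aureus* library were named after their values were seen. Of the 427 host symbols, 422 were found in a RefSeq gene table of another assembly, used for names only. A few circRNAs that this rule names are not reported here.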

Additional observations from a re-analysis of the deposited data

Results flagged for a closer look

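The number of peaks per kilobase on long minus that on short exonic circRNAs had opposite signs in the control and *E. coli* groups. It was -0.0568 in the control group (-0.0779 to -0.0423 over the 3 libraries) and 0.0103 in the *E. coli* group (0.00508 to 0.0152). Every control library was below 0 and every *E. coli* library above 0, and the difference between the groups had p = 0.1 in an exact permutation test over libraries, the smallest that 3 against 3 allow. The cause was not tested.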

How the results depend on the processing

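Few reads and few wells set the limits. Of the long exonic circRNAs 84.3% were seen in 1 library, no count test reached an adjusted p of 0.05 under any alternative, and no exact test of 3 wells against 3 can go below 0.1.

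Among results on groups, length classes and counts, 146 values under other settings and 226 with 1 well left out were labelled unchanged. In comparisons of groups the exact p is never below 0.1, so the side of the 0.05 threshold was fixed in advance. Only their direction was open to change. Counts have no direction or threshold and were labelled unchanged when they stayed near the main value. The 524 merged control places were so labelled at 464 to 502 with 1 well left out. Counts of long circRNAs at an adjusted p under 0.05 stayed at 0 there, which adds no support. Read totals kept their direction under every alternative run. For the remaining values below the cause was not tested.

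Peaks with an FDR of at most 20% turned *E. coli* minus control to 128 peaks, to 14.7 points in the share of circRNAs with a peak, to -16.3 points in the share of exonic peaks, to 0.278 peaks per modified circRNA and to 0.133 peaks per kilobase. With *S. aureus* no such peak was left, so its share of exonic peaks and its peaks per modified circRNA have no value there. Peaks above the control median fold enrichment (21.83) turned the share of circRNAs with a peak to 0.368 for *E. coli* minus control and peaks per modified circRNA to 0.113 for *S. aureus* minus control.

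A least length of 800 bases turned the share of detected exonic circRNAs that are long to -0.0801 (*S. aureus* minus control) and 1.98 (*E. coli* minus *S. aureus*), and peaks per modified circRNA to 0.0279 (*E. coli* minus *S. aureus*). For *E. coli* minus control that share of detected circRNAs became -0.587 at 1500 bases, -0.354 at 2000 bases and -1.63 with at least 2 reads. At 2000 bases the share of exonic peaks became -5.16 (*S. aureus* minus control) and 7.42 (*E. coli* minus *S. aureus*), and peaks per modified circRNA 0.679 (*E. coli* minus *S. aureus*).

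With 1 well left out, *E. coli* minus control ranged from -0.157 (without control well 3) to 0.836 for the share of exonic reads and from -0.138 to 1.72 for the share of detected circRNAs, while *E. coli* minus *S. aureus* ranged from -1.30 to 0.267 for the latter and from -0.153 to 0.0140 for peaks per modified circRNA. Fold enrichment of long minus short circRNAs ranged from 0.833 to 1.92 with a p of 0.0625 throughout, which is the smallest an exact sign-flip test over 5 libraries gives.

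Reads per detected circRNA, long minus the class of 400 to under 1000 bases, were 0.0298. Peaks per kilobase, long minus short, were 0.00607 with the genomic span as length and 0.0103 in *E. coli* wells alone. Long minus middle was -0.0544 with circRNAs read in the same well, 0.00927 with each peak counted on every circRNA it overlaps, 0.00911 in control wells alone and 0.0183 in *E. coli* wells alone, where 3 wells cannot give an exact p below 0.25. Settings by overlap or by the wells of 1 group were chosen after seeing the data.

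Past the thresholds of the study were 3, 2 and 5 long circRNAs for *S. aureus* against control, *E. coli* against control and *E. coli* against *S. aureus*. They were 1, 0 and 1 with DESeq2, 1, 3 and 2 without TMM, and in the last 2 comparisons 1 and 3 without a filter and 1 and 0 with only the groups compared. With 1 well left out they ranged from 1 to 3, 0 to 2 and 1 to 3. With the replicate block they were 2, 1 and 1, but same-numbered wells correlated between -0.0956 and 0.120 in their deviations, so the numbers did not pair the wells. For single circRNAs named from the count test, 23 calls were lost under other settings and 27 with 1 well left out, where 31 and 39 held. Settings in which a circRNA missed the filter are not among these. None changed direction, but in each call a group compared had 0 reads in all its wells. This fixed the direction in advance, so it is no support for it. Peaks limited to annotated exons were not run, since no exon annotation of bosTau9 was used here.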

Other observations

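Junction read counts of long exonic circRNAs were mostly even where they were at least 2. Of 692 library counts above 0, 316 were 1, 259 were 2, 32 were 3, 52 were 4, 9 were 5 and 13 were 6. Of the 376 counts of at least 2, 88.0% were even, beside 87.2% of 2507 such counts over all circRNAs. How the counts came to be even was not tested. If even counts hold pairs that are not independent, the filter of 2 reads and the floor of 3 counts stand for fewer independent reads than their numbers say.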
